A study of Mus musculus with 18 samples.

Results

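Total RNA libraries (Pico) and poly(A) libraries (TruSeq) made from the same mouse livers were compared gene by gene. The comparison took every gene listed in both sense-strand count tables, which gave 17207 genes of the 21018 listed for any of the 3 kits of the study, and 12 of its 18 libraries. Each Pico library was set against the TruSeq library of the same mouse, after division by its own total, so that there were 6 pairs. The RNA came from whole liver of male C57/B6J mice aged 12 weeks, taken 4 hours after an injection of 20 μg/kg IL-1β, an inflammatory cytokine (3 mice), or of saline (3 mice, marked UNT in the labels). The mice carried no allele or transgene that the labels name. Both kits started from aliquots of the same RNA, so the libraries of a pair hold RNA of the same cells. Amount of RNA, read length, sequencer and time of sequencing changed together with the kit and cannot be told apart from it.

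Most messenger RNAs, and many long noncoding RNAs, end in a tail of adenosines that is added after the transcript is cut behind a signal such as AATAAA. The TruSeq kit captures RNA by this tail. Several abundant RNAs have none: the RNA scaffolds of the signal recognition particle (7SL) and of the 7SK complex, the small nuclear RNAs (snRNAs) of the spliceosome, the small nucleolar RNAs (snoRNAs) that guide the modification of ribosomal RNA, and most messenger RNAs of replication-dependent histones, which end behind a stem-loop. The Pico kit instead primes complementary DNA along all RNA and then cuts the part that came from ribosomal RNA with an enzyme.

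The gene counts of a library summed to between 4024632 and 4134070 in Pico and between 12348864 and 12858237 in TruSeq. Low genes therefore rest on fewer reads in Pico, and the comparison was also made after every library had been thinned to 4024632 reads. Hepatocyte markers took 6.13% of the Pico and 8.89% of the TruSeq counts, and all 8 of them passed 10 counts per 1000000 counts of the library (CPM) in a kit. Markers of neutrophils took 0.00118% and 0.00248%, and those of T and B cells 0.000253% and 0.000174%. Each pair shares a mouse, so the tests measure the spread of the kit difference between the 6 mice.

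By share of all counts, protein-coding genes took less of Pico and untailed RNA more. Protein-coding genes held 89.6% ± 0.466 (SD, n = 6) of the counts in Pico and 97.9% ± 0.0498 in TruSeq, a difference of -8.23 ± 0.465 percentage points that was negative in 6 of 6 mice. Mitochondrial ribosomal RNA held 5.02% ± 0.42 against 0.109% ± 0.0104, and the class called misc_RNA in the annotation, which contains 7SL, 7SK and the RNA of RNase P, held 2.20% ± 0.17 against 0.00163% ± 0.000387. The Pico share of misc_RNA was 1067 to 1941 times the TruSeq share in the 6 mice. For snRNAs the Pico share of 0.0616% was 143 to 279 times that of TruSeq, and for snoRNAs the share of 0.0748% was 104 to 221 times. The class processed_transcript, which contains Malat1 and Neat1, held 1.44% ± 0.491 against 0.319% ± 0.0338. A list of 9 nuclear long noncoding RNAs, both among them, took 1.30% and 0.178% of the counts by itself. Malat1 and Neat1 held most of that share in both kits. Of the 9, 4 were higher (3 at equal depth) and 5 were not called. The median of the list at equal depth was 0.06 relative to all genes. Of the 395 processed_transcript genes tested, 34 (8.61%) were called at least 2-fold higher at equal depth, against 10.4% of all genes. Pseudogenes took a lower share of Pico, at 1.46% ± 0.0437 against 1.61% ± 0.0391. Shares of a library sum to its whole total, so a rise in some classes lowers the others. On average the Pico share was 0.908 times the TruSeq share for pseudogenes and 0.916 times for protein-coding genes. Each of these 7 differences in class share had the same sign in 6 of 6 mice. The exact sign-flip permutation test within mice, two-sided, gave p = 0.03125 for each, which is the floor for 6 mice. The adjusted p was 0.0357 by Benjamini-Hochberg over 8 classes. Long intergenic noncoding RNAs (lincRNAs) did not pass, with 0.108% ± 0.0159 in Pico and 0.104% ± 0.015 in TruSeq, higher in 5 of 6 mice (exact p = 0.21875, also after adjustment).

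**Figure D1:**
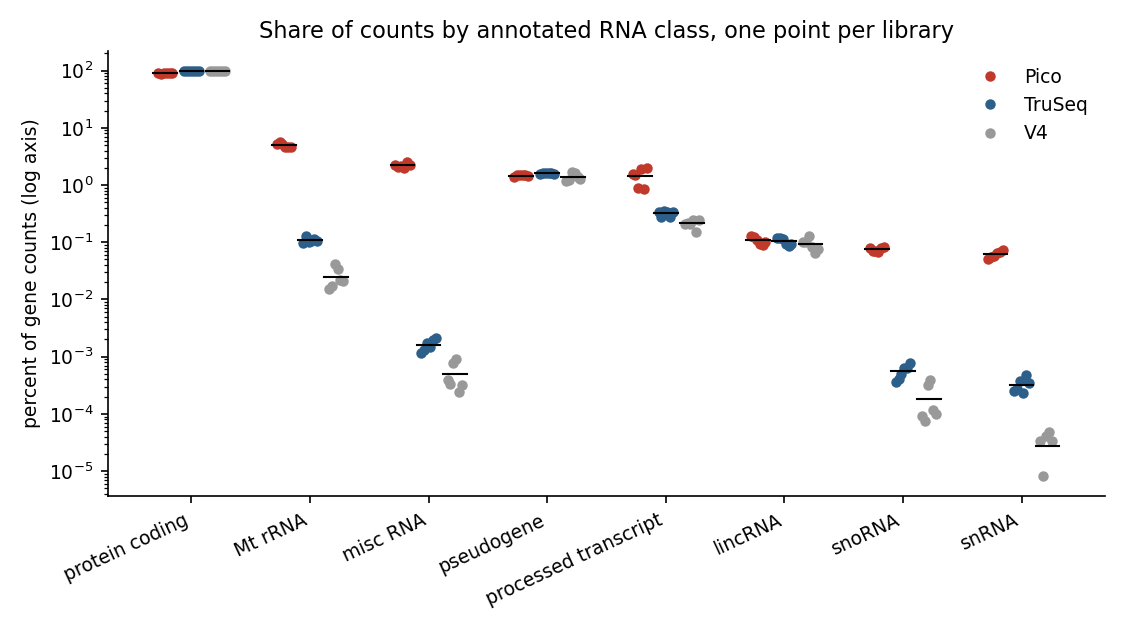
Percent of gene counts (log axis) taken by each of the 8 annotated RNA classes, with 1 point per library for Pico, TruSeq and V4, a further poly(A) kit of the study. The Pico points of misc_RNA, snRNA, snoRNA and Mt_rRNA stand above all points of both poly(A) kits, while the lincRNA points overlap. A V4 library with no snRNA count is not drawn.

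Over single genes, 5528 of the 17207 genes (32.1%) were higher in Pico and 3374 (19.6%) were lower at an adjusted p of at most 0.05 (limma-voom with the mouse as block, Benjamini-Hochberg adjustment). With a difference of at least 2-fold also required, 2984 (17.3%) were higher and 875 (5.09%) were lower. At equal depth these numbers were 1785 (10.4%) and 873 (5.07%), and 56.6% of the higher calls were kept. The higher calls that were lost had a median of 0.833 reads per Pico library and 0.5 reads per TruSeq library. Among the 8308 genes that reached a mean of 10 CPM in a kit, 897 were at least 2-fold higher and 443 at least 2-fold lower, and 913 and 451 at equal depth, but 696 and 685 with TMM factors and 691 and 699 in edgeR with TMM factors. Higher genes made up 62.1% of all calls with library totals. They made up 50.9% with TMM factors, 50.1% in DESeq2 and 43.4% in edgeR with TMM factors. TMM factors moved the median of all genes by -0.15 on the log2 scale, so medians of gene lists are given below relative to the median of all genes, which was 0.19. Low genes raised that median, which was 0.07 at equal depth. The 8308 genes at 10 CPM had a median of 0.03, or -0.16 relative to all genes. For lists whose genes mostly reach 10 CPM, -0.16 is the closer comparison.

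The untailed structural RNAs had the largest differences. The 7SL RNA, the scaffold of the particle that brings ribosomes to the endoplasmic reticulum, was counted mostly at 3 loci with nearly the same sequence. AC157822.1 (ENSMUSG00000092773, chr12:70462172-70462468, minus strand, mm9, next to Nemf) and AC099934.1 (chr12:70260282-70260578, plus strand, between Rps29 and Lrr1) lie where RefSeq names Rn7s2 and Rn7s1. Their 297 bases are identical. AC156953.1 lies on the plus strand at chr6:69466333-69466614 and matches them in 197 of its first 200 bases. The 7SK RNA, which holds the elongation factor P-TEFb inactive, was counted mostly at ENSMUSG00000065037 (chr9:78023110-78023440, minus strand, between Ick and Gsta4, Rn7sk in RefSeq). AC027184.1 (chr14:51427124-51427442, minus strand, between Ccnb1ip1 and Parp2) lies where RefSeq names Rpph1, the RNA subunit of RNase P, which matures transfer RNAs. The first 60 bases of 7SK and AC027184.1 are shown because they were the highest misc_RNA genes in Pico after the 7SL loci.

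7SK: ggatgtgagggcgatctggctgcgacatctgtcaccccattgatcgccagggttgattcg
AC027184.1: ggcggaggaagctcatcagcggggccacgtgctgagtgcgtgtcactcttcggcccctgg

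The 3 7SL loci together took 1.51%, 1.72% and 1.94% of the Pico counts (lowest, median and highest library) and between 0.000395% and 0.000975% of the TruSeq counts, or 419938 reads against 567. How the counting divided reads between near-identical copies cannot be seen in the tables, so the sum is firmer than the value of a locus. The 7SK locus on chromosome 9 had 2419, 2714 and 2920 CPM in Pico and 4.14, 5.13 and 6.64 in TruSeq. Its log2 difference was 8.99 ± 0.12 (SE, adjusted p = 4.24e-15), and it held 90.8% of the Pico reads of the 17 loci named 7SK. AC027184.1 had 1016, 1232 and 1558 CPM in Pico and 0.156, 0.397 and 0.967 in TruSeq. RNase_MRP (Rmrp in RefSeq), the RNA of an enzyme that processes the precursor of ribosomal RNA, was named after its values were seen. It had 348 to 478 CPM in Pico and 0.161 to 0.486 in TruSeq. In none of these genes did the kits overlap. Over all genes tested, 1691 (9.83%) were higher and 1236 (7.18%) lower in Pico without overlap. Of the 30 misc_RNA genes tested, 24 were at least 2-fold higher in Pico (16 at equal depth) and 1 was lower. Among the 17 loci named 7SK, 13 were higher, and 13 were under 1 CPM at their largest. The 30 genes are thus not all different RNAs.

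The spliceosomal snRNAs were higher in Pico throughout. All 21 tested snRNA genes were at least 2-fold higher in Pico (19 at equal depth), with a median log2 difference at equal depth of 4.77. The 7 loci of U1, which binds the 5′ splice site, summed to 6704 reads in Pico and 162 in TruSeq, and the 7 loci of U2, which binds the branch point, to 5107 and 25 reads. U4 had 825 reads at 2 loci against 23, and U5 had 46 against 1. These are a small part of either library, since U1 took 0.0262% and U2 0.0204% of the counts of the median Pico library.

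Of 61 snoRNA genes tested, 60 were at least 2-fold higher in Pico (53 at equal depth) and none was lower. Their median log2 difference was 5.73 (4.52 at equal depth). Snord17 had 75.6, 97.2 and 101 CPM in Pico, with at most 0.324 in a TruSeq library. snoU6-77 had 86.8, 100.2 and 138 against at most 0.322. A Pico library had a read for 110.5 ± 6.38 snoRNA genes and a TruSeq library for 25.8 ± 1.72 (109.3 ± 7.31 and 13.3 ± 3.01 at equal depth), more in 6 of 6 mice (exact sign-flip permutation test, two-sided, p = 0.03125). Many snoRNAs lie in introns or exons of host genes, and 8 such host genes were tested. Snhg1 was higher (1.34), Snhg3 (-1.97), Snhg11 (-0.86) and Gas5 (-0.79) were lower on the log2 scale, and 4 did not pass. The annotated exons of the called hosts overlap snoRNA genes, so some of their reads cannot be told apart from snoRNA reads.

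Both ribosomal RNAs of the mitochondrion were higher in Pico. The kit cuts ribosomal complementary DNA and the authors took ribosomal reads out before counting, and how far either step reached these genes was not tested, so the values are of the reads left. mt-Rnr2, the large one, had 38328, 40500 and 46403 CPM in Pico and 685, 721 and 872 in TruSeq, a log2 difference of 5.78 ± 0.04 (SE, adjusted p = 4.28e-18). mt-Rnr1, the small one, had 8030, 8794 and 10894 against 297, 338 and 394. Of the 13 mitochondrial messenger RNAs, 5 were higher, 5 lower and 3 not called. Among them mt-Nd6, the message on the other strand, differed by 2.23 ± 0.13 and mt-Co1 by -0.38 ± 0.04. The value of mt-Nd6 was not the highest, which was 2.60, and mt-Nd4l differed by 2.05.

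Malat1 and Neat1, long RNAs kept in the nucleus, in speckles and paraspeckles, were both higher in Pico. Malat1 (chr19:5795690-5802671, minus strand), whose end is a triple helix cut by RNase P in place of a poly(A) tail, had 5899, 6784 and 8698 CPM in Pico and 784, 1125 and 1714 in TruSeq. Its log2 difference was 2.66 ± 0.14 (SE, adjusted p = 6.03e-09), with no overlap. Neat1 (chr19:5824708-5845478, minus strand), which has a short tailed and a long untailed form, differed by 3.19 ± 0.13 (adjusted p = 7.08e-10). In the saline mice Neat1 had 5157, 4687 and 758 CPM in Pico and 459, 528 and 232 in TruSeq. In the IL-1β mice it had 11009, 1186 and 11656 in Pico and 1074, 188 and 1078 in TruSeq. The kits overlapped over mice for Neat1, but Pico was higher in every mouse, and in both kits the lowest mouse of each treatment was the same (UNT.9576 and ILB.9582). Tug1, a lincRNA, had 35.6 to 40.2 CPM in Pico and 34.5 to 40.4 in TruSeq and did not pass (log2 difference 0.04 ± 0.08, adjusted p = 0.713). Of the lincRNAs tested, 152 (30.8%) were at least 2-fold higher and 23 (4.67%) lower, against 17.3% and 5.09% of all genes. At equal depth 42 were higher (8.52%, against 10.4% of all genes) and 18 were lower. The share of higher lincRNAs was thus above that of all genes only at full depth.

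Replication-dependent histone messages were set in 4 groups by the sequence at their annotated end. The stem-loop was searched as a 6-base stem that opens with GG, a loop of 3 T and any base after them, and the matching second arm, on the strand of the gene, from 250 bases before to 100 bases past its annotated end. It occurred in 55 of 37310 annotated genes (0.147%), and in 7 on the other strand. It was found in 48 of the 70 annotated replication-dependent histone genes (68.6%). The poly(A) signals AATAAA and ATTAAA were searched in the last 50 bases of the gene, where 75.1% of the tested protein-coding genes had one (13.1% on the other strand). The stem-loop is shown in capitals with its 5 flanking bases for 4 genes with large differences, and the last 30 bases of the gene for 4 genes without a stem-loop, with the poly(A) signal in capitals. Hist1h1c and Hist1h2bc were named after their values were seen.

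Hist1h1e (stem-loop at chr13:23713651-23713666, minus strand): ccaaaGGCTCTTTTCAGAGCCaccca
Hist2h2ac (chr3:96024341-96024356, minus strand): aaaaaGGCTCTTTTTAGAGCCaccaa
Hist1h4h (chr13:23623327-23623342, plus strand): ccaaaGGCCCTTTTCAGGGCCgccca
Hist1h4d (chr13:23673819-23673834, plus strand): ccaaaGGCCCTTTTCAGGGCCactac
Hist1h2bc, gene end: tatAATAAAtgtcatgtaaagcaaaaaaaa
Hist1h1c, gene end: cttctAATAAAaagcgtttagttttcattc
Hist2h2be, gene end: ttattattAATAAAgttaccgattagtttc
Hist2h3c1, gene end: ttaatcccAATAAAaatttaacacactgct

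Of the 40 histone genes tested, 21 had the stem-loop and no poly(A) signal at the annotated end. Their log2 differences ran from 0.74 to 9.07 (median 3.96, and 2.59 at equal depth), and 20 of them were higher in Pico. They summed to 3645 reads in Pico and 155 in TruSeq. The linker histone Hist1h1e alone had 2001 of these Pico reads and 11 TruSeq reads, with 61.8, 77.1 and 107 CPM in Pico and 0, 0.199 and 0.243 in TruSeq. The 10 genes with the signal and no stem-loop summed to 3344 and 7937 reads. Of these 10, 6 were higher and 2 lower (median 0.54, and 0.52 at equal depth), up to 3.55 for the highest. Hist1h2bc had 68.8, 83.9 and 98.3 CPM in Pico and 51.7, 59.6 and 70.7 in TruSeq, and differed by 0.49 ± 0.07. Hist1h1c differed by 0.30 ± 0.11 (SE, adjusted p = 0.0393), and that call was lost under 11 of the alternatives. Hist2h2be (-1.73) and Hist2h3c1 (-0.80) were lower, on 33 and 87 Pico reads, with calls that were lost without mouse UNT.9576 and at several other settings, and Hist2h3c1 shares 562 exon bases with Hist2h2aa1. The 3 genes with both features (median 1.84, and 0.78 at equal depth) and the 6 with neither (median 3.43, and 2.68 at equal depth) included none that was lower. The genes with neither feature were thus not below those with the stem-loop at equal depth. A further 23 histone genes, 19 of them with the stem-loop, were listed in the Pico table and not in the TruSeq table, with 389 reads in all. In the other direction, 4 histone genes were listed in the TruSeq table only.

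**Figure D2:**
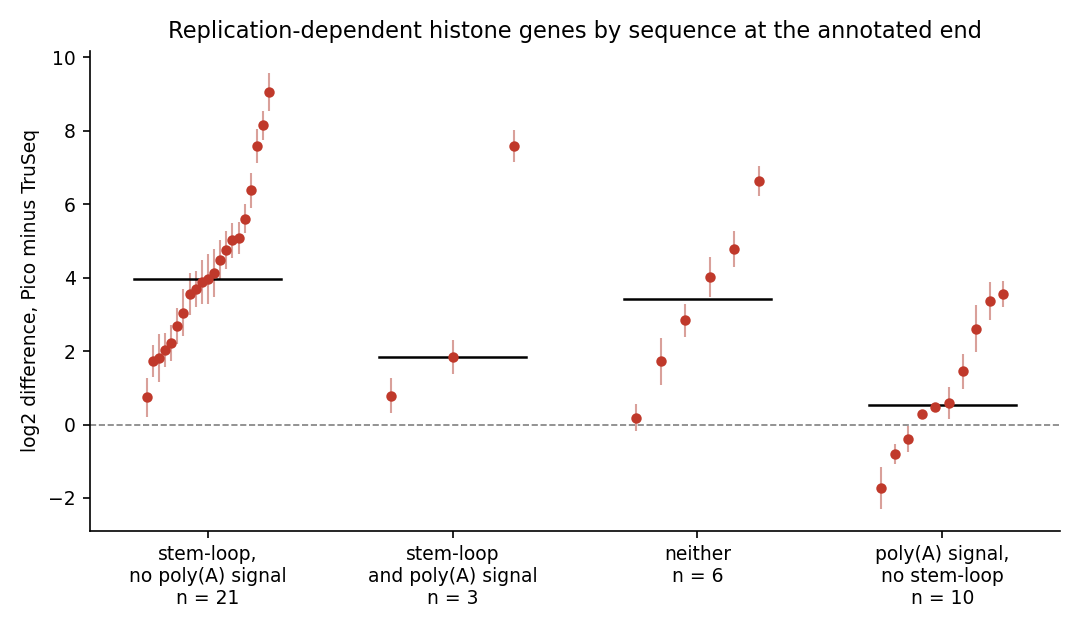
Log2 difference of Pico minus TruSeq for the 40 tested replication-dependent histone genes (1 point per gene), grouped by whether a stem-loop or a poly(A) signal was found at the annotated end, with a dashed line at no difference. Genes with the stem-loop and no signal have a median of 3.96 (2.59 at equal depth), those with neither 3.43 (2.68 at equal depth), and those with the signal and no stem-loop lie between -1.73 and 3.55.

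The same signal was counted across all messages. Among nuclear protein-coding genes with at least 10 CPM in a kit, the 6159 with a signal had a median log2 difference of 0.02 and the 1775 without had 0.09.

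Outside the histones, large differences among protein-coding genes were partly on few reads. The largest was that of Gm5148, with 304 Pico and 3 TruSeq reads, a ratio of rates of 313 (95% exact interval for counting error only, 106 to 1526). Scand1, which encodes a small SCAN-domain protein, had 6.92, 11.6 and 12.9 CPM in Pico and 0.0778, 0.198 and 0.322 in TruSeq. Galnt2 differed by 6.18 on 263 and 10 reads, but 3854 of its 4282 exon bases are shared with Gm20388, so the assignment of reads is uncertain.

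Crebbp, a histone acetyltransferase and coactivator, combined a large difference with many reads. It had 139, 169 and 202 CPM in Pico and 14.3, 22.6 and 29.6 in TruSeq, a log2 difference of 2.93 ± 0.08 (SE, adjusted p = 9.95e-12). Coagulation factor F8 differed by 2.87 ± 0.11 (36.8 to 91.3 against 4.86 to 12.6). Neither gene overlapped between kits.

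Long messages tended to be higher in Pico and short ones in TruSeq. Among 7934 nuclear protein-coding genes with at least 10 CPM in a kit, the shortest of 5 groups of equal size (297 to 2219 exon bases) had a median log2 difference of -0.38, with 17.8% of genes higher and 56.0% lower. The medians of the next 3 groups were -0.21, -0.04 and 0.19. The longest group (6636 to 31152 bases) had a median of 0.60, with 72.5% higher and 6.74% lower. Single mice gave -0.44 to -0.34 for the shortest group and 0.56 to 0.70 for the longest. Over the 8308 genes at that level, Spearman's rho of the log2 difference was 0.44 with exon length (0.386 to 0.451 in single mice), 0.29 with exon number and -0.10 with GC content (-0.24 to 0.01 in single mice). These are correlations across genes of the same 12 libraries, and genes are not independent replicates.

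**Figure D3:**
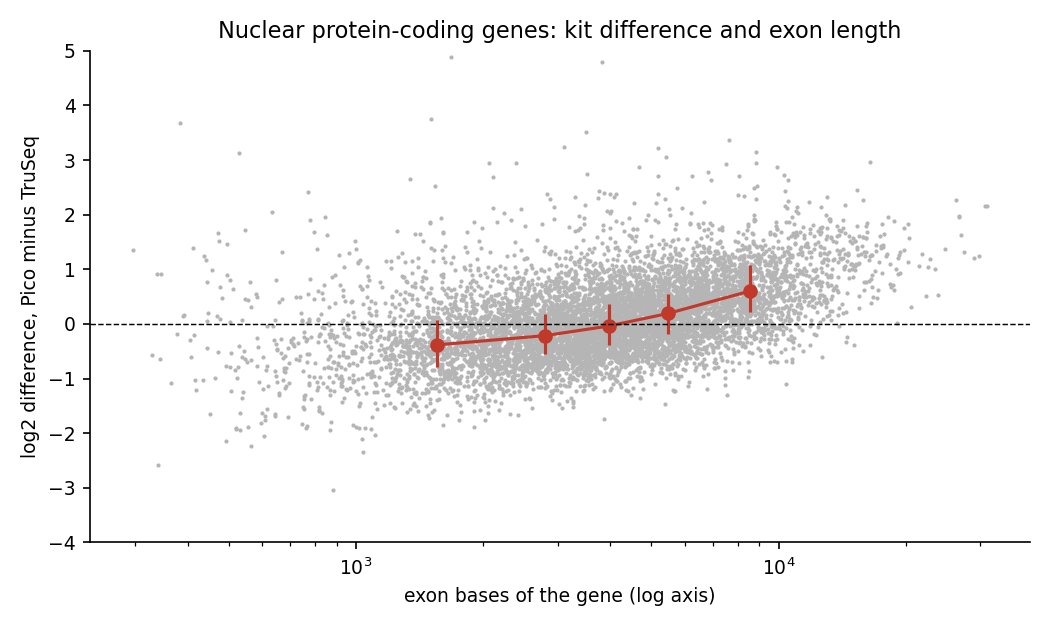
Log2 difference of Pico minus TruSeq (y axis) against the exon bases of the gene (log x axis) for 7934 nuclear protein-coding genes, with the median and the quartiles of each of 5 groups by length. The medians climb from -0.38 in the shortest to 0.60 in the longest group, and 8 genes above 5 are not drawn.

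Among the lists of nuclear protein-coding genes other than histones, the 2 with the highest medians were those of large cytoskeletal proteins and of chromatin regulators with long messages, and length entered the choice of both. Of 37 genes for large cytoskeletal and trafficking proteins, 35 were higher in Pico and none lower, with a median 1.14 above that of all genes and a median of 15440 exon bases. Lyst, a regulator of lysosome size, had 50.7, 107 and 154 CPM in Pico and 8.93, 20.2 and 41.8 in TruSeq, and differed by 2.24 ± 0.12. The non-muscle myosin Myh9 differed by 1.55 ± 0.05 (median of 587 against 199.9 CPM). Of 45 chromatin regulators, chosen for long messages, 42 were higher and none lower (median 1.02 above all genes, 10479 exon bases). Besides Crebbp these included the histone methyltransferase Mll2 (1.76 ± 0.07). Setd1a did not pass, and 3523 of its exon bases are shared with Hsd3b7.

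Matrix and vessel genes were also mostly higher. Of 29 collagens and other matrix genes, 19 were higher and 3 lower (median 0.53 above all genes). Perlecan, Hspg2, had 49.9, 75.1 and 87.6 CPM in Pico and 14.5, 15.0 and 17.4 in TruSeq, and differed by 2.18 ± 0.11. Fibronectin, Fn1, made and secreted by hepatocytes, differed by 1.12 ± 0.04, while Dcn (-0.49) and Col5a3 (-0.91) were lower. Markers of sinusoidal endothelium were higher in 7 of 7 cases with library totals and in 5 of 7 both at equal depth and with TMM factors (median 0.78 above all genes), in libraries of the same RNA. Stab1 differed by 0.44 ± 0.10, Stab2 by 1.47 ± 0.08 and Kdr by 1.23 ± 0.11. The median exon length of these markers was 4314 bases, and its part in the result was not tested.

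Of 36 immediate early genes, which answer stimuli within minutes, 19 were higher and 2 lower (median 0.35 above all genes). The AP-1 subunit Jund had 39.3, 72.3 and 114 CPM in Pico and 7.59, 14.6 and 25.4 in TruSeq (2.29 ± 0.11), and Jun differed by 1.77 ± 0.10. Fos did not pass (-0.52). Of 348 genes named Zfp, Zscan or Zkscan, most of them for DNA-binding zinc finger proteins, 125 were higher and 18 lower (100 and 28 with TMM factors). This share of higher genes was close to the 32.1% of all genes, with a median 0.19 above them.

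**Figure D4:**
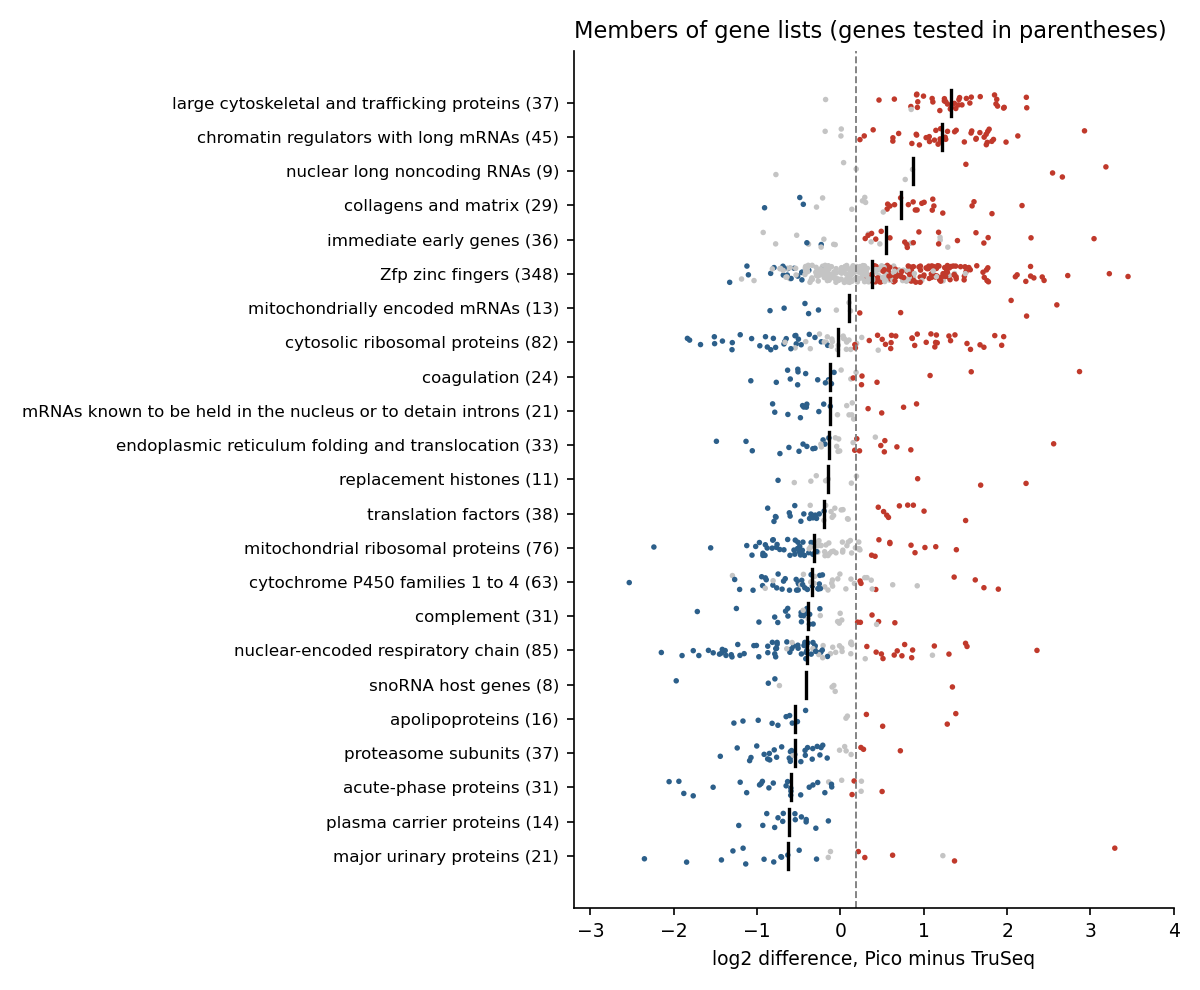
Log2 difference of Pico minus TruSeq for the members of 23 gene lists, with the number tested in parentheses. Red points were higher and blue points lower at an adjusted p of at most 0.05, grey points were not called, black bars are list medians and the dashed line is the median of all genes (0.19).

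Lower medians were found for plasma carrier and acute-phase proteins. All 14 plasma carrier proteins were lower in Pico (median -0.81 relative to all genes). Albumin, Alb, had 28829, 36357 and 48404 CPM in Pico and 46169, 60694 and 82615 in TruSeq, and was lower in every mouse (log2 difference -0.75 ± 0.03, adjusted p = 3.48e-10). The heme carrier Hpx differed by -1.22 ± 0.04, the fetuin Ahsg by -0.93 ± 0.02 and the thyroxine carrier Ttr by -0.47 ± 0.02. Together the carriers took 5.84% of the Pico and 9.98% of the TruSeq counts. Of 31 acute-phase genes, 24 were lower and 3 higher (median -0.78 relative to all genes). Saa1, a serum amyloid, had 1571, 1702 and 1816 CPM in Pico and 6596, 6977 and 7668 in TruSeq in the IL-1β mice. In the saline mice it had 12.6, 22.8 and 25.6 against 44.2, 95.6 and 96.5. Its log2 difference was -2.06 ± 0.03, with -2.08 to -1.80 in single mice, and no difference between treatments passed (interaction -0.12, adjusted p = 0.865).

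Apolipoproteins divided. Apob, the very long message of the main lipoprotein scaffold, had 13825, 14849 and 17049 CPM in Pico and 4939, 5872 and 8855 in TruSeq (1.28 ± 0.08). Apoe, a ligand for lipoprotein receptors with 1980 exon bases, had 17865, 21789 and 24017 against 7108, 7906 and 10070 (1.38 ± 0.05). Of the 16 members 10 were lower, including Apoc3, an inhibitor of lipoprotein lipase (-1.28 ± 0.04), so the list median was -0.74 relative to all genes although its share of counts was 5.15% in Pico and 3.11% in TruSeq.

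Subunits of the proteasome and of the respiratory chain were mostly lower. Of 37 proteasome subunits 29 were lower and 3 higher (median -0.74 relative to all genes), with Psmb2 at 16.2, 23.8 and 29.7 CPM in Pico and 55.2, 63.2 and 73.7 in TruSeq. Of 85 nuclear-encoded respiratory chain genes 51 were lower and 15 higher (median -0.59). Ndufa4, a subunit with 492 exon bases, had 46.2, 57.4 and 72.8 CPM in Pico and 211, 258 and 288 in TruSeq, a log2 difference of -2.15 ± 0.09. Of 76 mitochondrial ribosomal proteins 36 were lower and 10 higher (median -0.51), and 30 were not called. Cytosolic ribosomal proteins split evenly, with 30 higher and 29 lower of 82, from -1.84 for Rpl36a to 1.96 for Rpl23a. Many of these genes have processed pseudogenes of near-identical sequence, so their counts are uncertain. Cytochrome P450 genes of families 1 to 4, which oxidize drugs, steroids and fatty acids, were lower in 32 and higher in 7 of 63 cases, with Cyp2e1 at -1.05 ± 0.03, complement genes in 18 and 5 of 31, and major urinary proteins, whose copies are nearly identical, in 13 and 5 of 21. Translation factors were lower in 18 and higher in 9 of 38 cases, genes of folding and translocation in the endoplasmic reticulum in 13 and 9 of 33, and coagulation genes in 13 and 7 of 24. For comparison, 19.6% of all genes tested were lower and 32.1% higher. Of the 8308 genes at 10 CPM in a kit, 2702 were lower and 3102 higher, and 3382 and 2487 with TMM factors. With TMM factors the counts for the endoplasmic reticulum were 21 lower and 6 higher, for cytochrome P450 genes 36 and 4, and for major urinary proteins 15 and 3. They were 25 and 9 for translation factors, 45 and 10 for mitochondrial ribosomal proteins, and 57 and 13 for the respiratory chain. For the proteasome they were 29 and 1, and for cytosolic ribosomal proteins 34 and 26. Complement genes had 21 lower and 4 higher, and coagulation genes 14 and 5. By share of counts, complement genes nonetheless took 2.32% of Pico and 2.18% of TruSeq. The endoplasmic reticulum genes took 1.41% and 1.31%. A list of messages known to be held in the nucleus or to keep introns had 11 lower and 4 higher of 21 genes. Within the urinary proteins Mup16 differed by -2.35 ± 0.08 and Mup5 by 3.29 ± 0.32.

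Among other protein-coding genes lower by the most were Usmg5, a small subunit of the mitochondrial ATP synthase (341 exon bases, -2.58), Mrps16 (-2.24), Pts, an enzyme of tetrahydrobiopterin synthesis (-2.10), Trappc1 (-2.03) and Tmem147 (-1.94). Tmem147 had 7.77, 13.5 and 18.6 CPM in Pico and 42.0, 50.4 and 61.4 in TruSeq. The pseudogenes Rps15-ps2 (-2.69) and Gm12338 (-2.57) were also lower. Of 1587 pseudogenes tested 551 (34.7%) were at least 2-fold higher and 181 (11.4%) lower, against 17.3% and 5.09% of all genes. At equal depth 235 (14.8%) were higher and 176 lower, against 10.4% and 5.07% of all genes. The share of counts of the class was nonetheless lower in Pico.

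**Figure D5:**
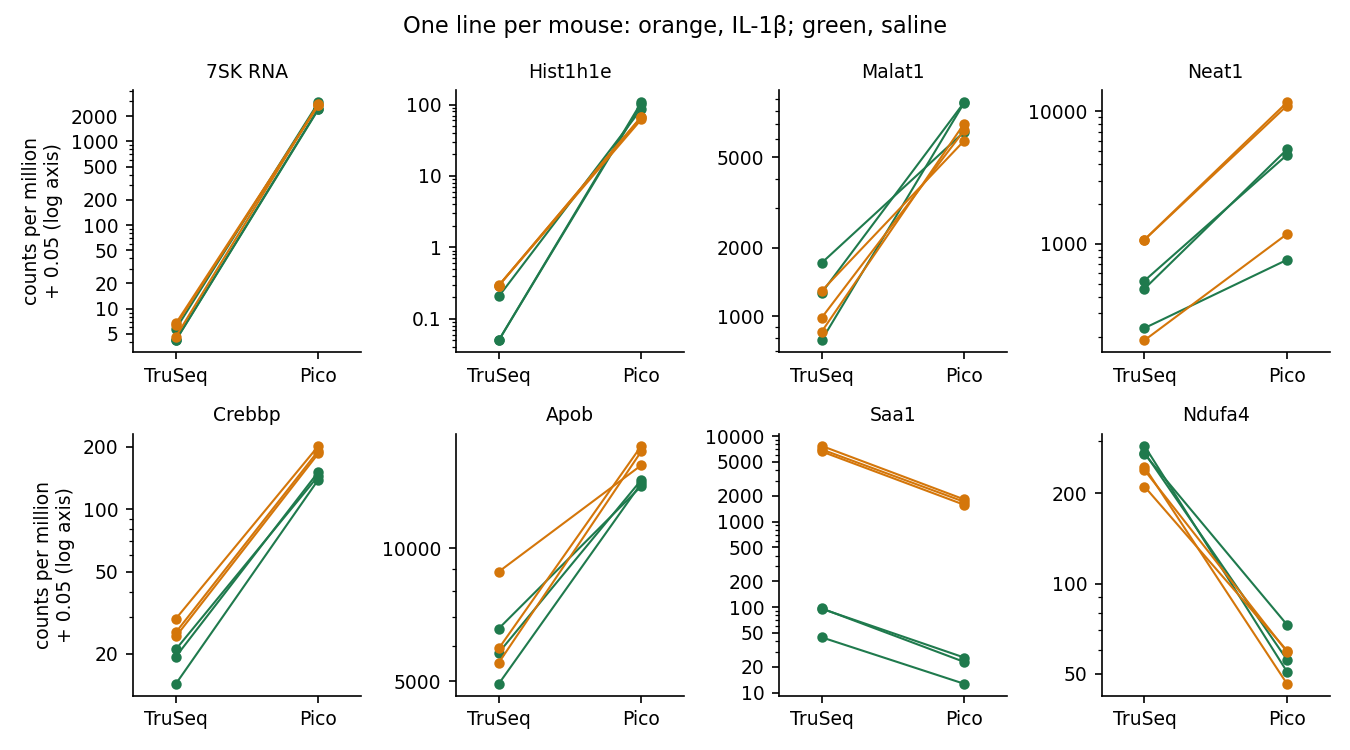
CPM plus 0.05 (log axis) of 8 genes in the TruSeq and Pico library of each mouse, with 1 line per mouse, orange for IL-1β and green for saline. All 6 lines climb toward Pico for 7SK, Hist1h1e, Malat1, Neat1, Crebbp and Apob and drop for Saa1 and Ndufa4.

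The study's own RT-PCR set of 18 genes had 12 higher and 3 lower genes. It was chosen by the study for differences between kits on these samples and is therefore no independent evidence of a direction. Tcf20, a transcriptional coregulator, had 97.2, 119 and 122 CPM in Pico and 29.4, 32.0 and 44.5 in TruSeq (1.77 ± 0.09).

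Whether the kit difference depended on treatment was tested as an interaction. It called 1 of 17207 genes (0.00581%), C3, the central complement component, whose log2 difference was 0.28 in the IL-1β and 0.52 in the saline mice (interaction -0.24 ± 0.02, adjusted p = 0.0015). Fn1 and Fga followed with adjusted p = 0.0551 and 0.075, and 1278 genes (7.43%) had an unadjusted p under 0.05. When a mouse was left out, the C3 interaction stayed between -0.26 and -0.23, with adjusted p = 0.0021 to 0.335. C3 passed with TMM factors, in edgeR, with at least 10 counts in 3 libraries and at equal depth. It did not pass in DESeq2 (adjusted p = 0.108) or in limma-voom without the mouse as block (adjusted p = 0.900). No gene was called without mouse UNT.9574, ILB.9579 or ILB.9583 (1145, 1033 and 930 genes at an unadjusted p under 0.05), and 3, 4 and 2 genes were called without UNT.9575, UNT.9576 and ILB.9582. Other settings called 0 to 67 genes.

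Genes listed in a single table held few reads. The Pico table had 901 genes that the TruSeq table lacks, with 6519 reads in all, and 249 of them had more than 3 reads over the 6 libraries. By class these 901 included 105 snoRNAs (1905 reads), 50 snRNAs (964 reads) and 29 misc_RNA genes (988 reads). Among those named after their values were seen, U11, an snRNA of the minor spliceosome, had 201 reads and SNORA54 had 378. The TruSeq table had 2217 genes that the Pico table lacks, with 7639 reads, of which 1261 were protein-coding.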

How the data were processed

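Liver RNA of 6 mice was sequenced with 3 kits, and the Pico and TruSeq tables were used here. The deposited values are counts, whole reads per gene on the sense strand. The authors aligned reads with GSNAP to mm9, removed ribosomal reads, resampled each kit to an equal depth with PORT and counted reads that followed annotated junctions. The paper repeated the Pico preparation, and the run in the table is not stated. Differences were fitted with limma-voom (limma 3.58.1, R 4.3.3) on 17207 genes with library totals and the mouse as block, which pairs the libraries because each RNA was split between kits. For genes with 20 or more counts on average in both kits, deviations from the mean of the treatment correlated at 0.176 to 0.406 within mice and -0.321 to -0.042 between mice. voom adds 0.5 counts, so fitted values of low genes understate or overstate a fold and depend on depth. Replicate libraries differed beyond sampling noise (lowest ratio of chi-square to its degrees of freedom 7.04).

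Alternatives were edgeR 4.0.16, DESeq2 1.42.0, TMM factors, totals without mitochondrial genes, at least 10 counts in 3 libraries, thinning to 4024632 reads, no block, single treatments and each mouse left out. Figures and summaries used Python 3.11.15. The fits were tested on simulated data. Gene types, coordinates and sequences follow the mm9 annotation and genome, in which all listed gene IDs were found, and RefSeq tables of another build served only for names at shared neighbours. Exon length is the union of a gene's exons.

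Members and lists were chosen with earlier results of these data known. Genes named are the 10 protein-coding and 5 other genes with the largest difference of each sign (adjusted p of at most 0.01, no overlap, 10 CPM), the top genes of each class, the ends of each list, the RT-PCR genes and the 3 smallest p of the interaction. Lists are described without a test. Levels across kits rest on tables normalized separately. V4 was used only for shares, since it does not keep the strand. A gene and some sequences within these rules are not reported here.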

Additional observations from a re-analysis of the deposited data

Results flagged for a closer look

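Of 168 groups of 6 mice looked at (kit differences of single genes and medians of lists), 11 had a mouse far from the others, and chance gives about 1 in 20. Mouse UNT.9575 had the lowest median log2 difference for proteasome subunits (-0.668, others -0.506 to -0.431) and for translation factors (-0.332, others -0.170 to -0.106). It also had the lowest value for Saa3 (-3.22, others -2.02 to -1.74), on 0.485 CPM in its Pico library, and the highest for Col5a3 (-0.41, others -1.18 to -0.93). Mouse UNT.9576 had the highest median for plasma carriers (-0.492, others -0.672 to -0.612) and the lowest values for Hist2h2ac (6.59, others 8.09 to 8.80) and Rpl36a (-3.52, others -1.90 to -1.20). Mouse UNT.9574 had the highest values for AC157822.1 (12.45, others 10.98 to 11.44) and Ttr (-0.35, others -0.52 to -0.47). Mouse ILB.9582 had the lowest values for Ndufb3 (-2.73, others -2.01 to -1.59) and Psmb2 (-2.11, others -1.48 to -1.19).

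For C3 the kit difference differed between treatments by -0.24 on the log2 scale in the test of the interaction. Outside the compared genes, 249 genes of the Pico table that the TruSeq table does not list had more than 3 reads over the 6 libraries.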

How the results depend on the processing

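Of 2112 recomputed gene results (132 genes), 2086 kept their direction and side of the threshold, 24 lost and 2 gained a call, and none reversed. The 8 genes concerned were Atf3, Dcn, Hist1h1c, Hist2h2be, Hist2h3c1, Lyve1, Setd1a and Snhg3. The number of genes higher in Pico was 3433 in edgeR, 3379 in the IL-1β mice alone and 3011 in the saline mice alone, and of lower genes 2223 and 1921 in single treatments, which hold fewer mice. Genes at least 2-fold higher numbered 1378 in edgeR, 1589 in DESeq2, 1595 with at least 10 counts in 3 libraries, 1785 at equal depth, 1844 in the IL-1β mice and 1642 in the saline mice. Leaving out a mouse gave 2620 to 2763. At 10 CPM or more, TMM factors moved the number at least 2-fold lower from 443 to 685. With the totals of nuclear protein-coding genes, a choice made after seeing the data, 6416 genes were higher and 2665 lower. The interaction called 7 genes with TMM factors, 67 in edgeR, 10 in DESeq2, 51 with the count minimum and 0 to 4 when a mouse was left out, and the cause was not tested. Without the mouse as replicate block it called 0 genes (945 at an unadjusted p under 0.05), and without this pairing Hist1h1c (0.31) and Hist2h3c1 (-0.75) were not called, while no other count above moved by over 1.5 times. Of 447 recomputed list medians 78 moved by more than their spread over mice. The rho with exon length was 0.493 over the 7862 nuclear protein-coding genes other than histones and ribosomal proteins and 0.481 with the longest transcript. It was 0.391, 0.403, 0.409 and 0.386 in mice UNT.9574, UNT.9575, UNT.9576 and ILB.9582 by themselves. The depth of Pico limits low genes, since a count of 0 in a library allows up to 3 reads.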
